A study of Mus musculus with 8 samples.

Results

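Divergent piRNA loci are neighbouring piRNA sources that start almost back to back and are transcribed away from each other. The 8 loci described here form 4 such pairs on mouse chromosome 7, beside 200 other piRNA loci in 2 tables of testis RNA. They were chosen by name and position, as rows with a minus strand arm and a plus strand arm whose 5′ ends lie within 200 bp, and not by their values. All 8 passed the filter on low counts in both assays. Among all loci, 12 head-to-head pairs have 5′ ends within 1000 bp, so that 8 pairs remain for comparison. The study asked what a partial deletion of Exd2, a gene for an exonuclease domain-containing protein, does to piRNA production. Exd2∆ mice, made by Cas9 editing of embryos of the C57BL6 background, carry a deletion from late in exon 2 into the next intron, and Exd2+/+ mice were the controls. Whole testes of adult mice were used, 2 replicates per genotype, called biological by the submitters. Each replicate number occurs once per assay, as small RNA and as long RNA depleted of ribosomal RNA. The 4 groups are thus Exd2∆ and Exd2+/+ in small RNA and Exd2∆ and Exd2+/+ in long RNA, with 2 libraries each. The sources do not give the number of founder lines or the exact age.

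piRNAs are short guide RNAs that bind PIWI proteins and, in the male germ line, silence transposons and other transcripts. In mouse spermatocytes at the pachytene stage of meiosis most of them are cut from long single-stranded precursor RNAs, and many precursors come in divergent pairs that share 1 bidirectional promoter. The transcription factor A-MYB (Mybl1) binds such promoters and switches the loci on. Each precursor is then exported and cut into piRNAs in granules next to mitochondria, so that the amount of precursor and the amount of piRNA from an arm are separate readouts. Small RNA counted at a locus is called piRNA below, and long RNA counted there is called precursor, although the files do not say whether reads were filtered for piRNA length.

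The stretch between the 5′ ends is the shared start region of a pair, and it is shown here for the pairs where the reference holds it. RefSeq promoter windows (GRCm38.p6, 250 bases before to 50 after an annotated start) span both 5′ ends in 2 of the 4 pairs. For the pair of 7-qD2-24830.3 and 7-qD2-11976.3 this is the window of the lincRNA gene Gm10619, chr7:73816454-73816753, minus strand. For the pair of 7-qF3-3125.5 and 7-qF3-246.1 it is that of the lincRNA gene 4933440M02Rik, chr7:125349737-125350036, minus strand. Both are printed 5′ to 3′ on the minus strand, with the MYB core AACNG in capitals where it matches on either strand.
Gm10619: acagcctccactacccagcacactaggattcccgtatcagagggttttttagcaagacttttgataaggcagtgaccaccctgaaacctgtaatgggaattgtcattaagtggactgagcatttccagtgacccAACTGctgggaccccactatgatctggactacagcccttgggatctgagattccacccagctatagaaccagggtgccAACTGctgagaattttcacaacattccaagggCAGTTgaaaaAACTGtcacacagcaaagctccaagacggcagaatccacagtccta
4933440M02Rik: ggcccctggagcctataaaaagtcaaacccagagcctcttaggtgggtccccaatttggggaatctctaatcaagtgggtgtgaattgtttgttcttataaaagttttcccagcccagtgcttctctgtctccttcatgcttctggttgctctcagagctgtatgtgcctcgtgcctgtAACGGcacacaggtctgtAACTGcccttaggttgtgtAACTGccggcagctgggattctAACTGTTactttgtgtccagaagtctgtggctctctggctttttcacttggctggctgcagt

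The plus arm of the 7-qD2 pair starts at base 160 of the Gm10619 window and the minus arm at base 285. Of the 4 core matches in that window, 3 lie between these starts. In the 4933440M02Rik window the plus arm starts at base 167 and the minus arm at base 265, and all 5 core matches, a pair of which overlap in AACTGTT, lie between them. The core is common, since 80.3% of the 32841 promoter windows of this length in the table hold it, with a median of 2 matches. The longer MYB site CAGTTG, which contains the core and was searched on both strands, has 3 matches in the Gm10619 window and 0 in the 4933440M02Rik window, and 13.7% of all promoters hold it. CCAAT occurs 0 times and 1 time, TATAAA 0 times and 2 times (37.4% and 13.6% of all promoters), in the order given. The CCAAT match (bases 51 to 55) and the TATAAA matches (bases 14 to 19 and 97 to 102) are not between the starts. They lie beyond the plus arm's start, within the span of 7-qF3-246.1. CpG dinucleotides are few, 2 in the Gm10619 window and 3 in the 4933440M02Rik window, against a median of 7 over all promoters. These matches describe letters in the windows and not binding.

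The arms are long and unequal in length. In the order along chromosome 7 (GRCm38), 7-qD1-9417.1 (69874209 to 69909583, minus strand) faces away from 7-qD1-16444.1 (69909763 to 69966359, plus strand). Next come 7-qD1-654.1 (73097825 to 73105273, minus) with 7-qD1-19431.2 (73105311 to 73146779, plus), and 7-qD2-24830.3 (73773916 to 73816469, minus) with 7-qD2-11976.3 (73816594 to 73838894, plus). 7-qF3-3125.5 (125316892 to 125349772, minus) and 7-qF3-246.1 (125349870 to 125364820, plus) are the last pair. The gaps between the 5′ end positions are 180, 38, 125 and 98 bp, and no arm overlaps its partner. The shortest arm is 7-qD1-654.1 at 7.45 kb and the longest 7-qD1-16444.1 at 56.6 kb. The pairs of 7-qD1-654.1 and 7-qD2-24830.3 are neighbours, 711 kb apart between their midpoints.

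**Figure D1:**
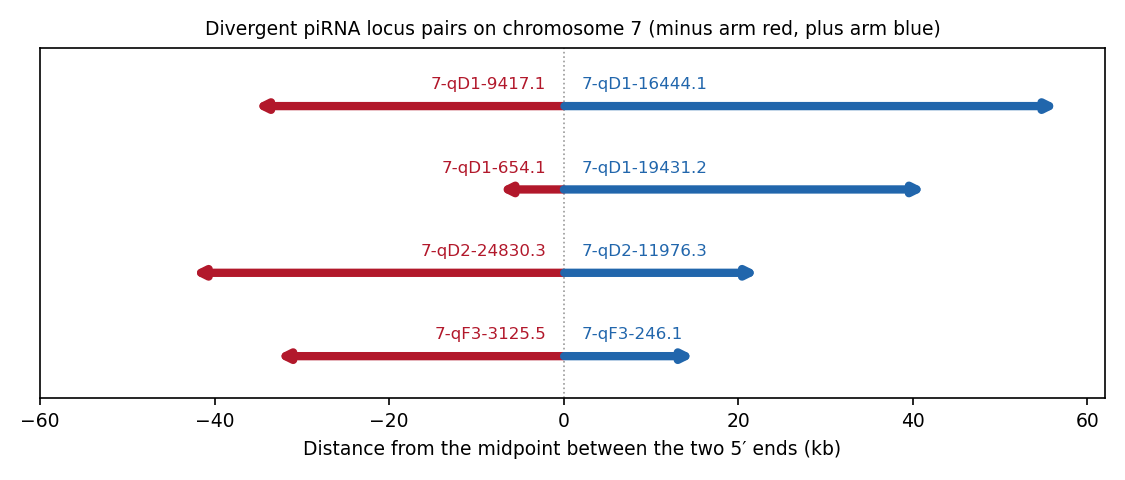
Extent of the 8 loci, drawn to scale, with the x axis giving the distance in kb from the midpoint between the 5′ ends of each pair and arrows giving the direction of transcription. Minus arms (red) span 7.45 to 42.55 kb and plus arms (blue) 14.95 to 56.6 kb.

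GENCODE M21 annotates 3 of the arms as lincRNA genes from their start. Gm10619 begins 34 bp upstream of 7-qD2-24830.3 on its strand and covers 82.3% of it, Gm21269 begins 48 bp upstream of 7-qD2-11976.3 and covers 100% of it, and 4933440M02Rik begins 16 bp upstream of 7-qF3-3125.5 and covers 100% of it. Exons make up 12.8%, 55.6% and 11.97% of these arms, so most of 7-qD2-24830.3 and 7-qF3-3125.5 is intronic in that annotation. 7-qD1-654.1 overlaps the lincRNA gene Gm6567 over 57.0% of its span, but that gene starts within the arm, 3205 bp downstream of the arm's start. The other arms on the 7-qD1 band overlap only short genes on their strand (4933435G04Rik, Gm44690 and 4933423L19Rik, at most 5.08% of an arm), and 7-qF3-246.1 overlaps no annotated gene. On the opposite strand, the snoRNA gene Gm24120 lies over 129 bp of 7-qD1-16444.1 and 4930533L02Rik over 1160 bp of 7-qF3-3125.5. The distal 3004 bp of 7-qD2-24830.3 lie opposite the end of the protein-coding gene Fam174b. The long RNA kit was directional, but the counting is not stated to use strand, so reads of either strand may not be told apart in these stretches. Mir7234, a miRNA gene of 52 bp, lies within 7-qD2-11976.3, and its reads cannot be separated from the piRNAs.

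The libraries held 28408830 to 37660202 estimated counts over all loci in small RNA and 960909 to 1842625 in long RNA, with the lowest long RNA total in Exd2∆ replicate 1. The least covered member, 7-qF3-246.1, still reached 5526 counts as piRNA and 847.5 as precursor in its lowest library, a counting error of 1.35% and 3.44%, which covers counting only. The summed share of the 8 loci in the small RNA counts over all piRNA loci was 12.5% ± 0.00735 for Exd2+/+ and 12.9% ± 0.161 for Exd2∆. Their share of the long RNA counts over all piRNA loci was 6.81% ± 0.0775 for Exd2+/+ and 5.93% ± 0.632 for Exd2∆ (SD, n = 2 per genotype and assay). Levels are CPM, the counts of a library scaled to a common total over the piRNA loci with TMM factors, so a change shared by all loci would not be seen. The tables hold no marker genes of testis cell types and no Exd2, so that neither the tissue nor the genotype labels could be checked. In whole testis, fewer cells of a type and less RNA per cell cannot be told apart.

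The 8 arms differed widely in piRNA level in Exd2+/+ testis. 7-qD2-24830.3 stood highest, at 38025 ± 776 CPM and rank 7 of all loci, and 7-qF3-246.1 lowest, at 211 ± 26.1 CPM and rank 114 (SD, n = 2 each). Per kb of locus the order was 7-qD2-24830.3 (894 ± 18.2 CPM per kb), 7-qD2-11976.3 (879 ± 11.3), 7-qD1-19431.2 (661 ± 33.3), 7-qD1-16444.1 (380.1 ± 2.01), 7-qD1-9417.1 (366 ± 5.73), 7-qF3-3125.5 (198 ± 7.34), 7-qD1-654.1 (90.2 ± 6.59) and 7-qF3-246.1 (14.1 ± 1.74; SD, n = 2 each). Of neighbours in this order only the arms of the 7-qD2 pair lie within 1 SD of each other. The precursors spanned a narrower range per kb, from 448 ± 11.0 CPM per kb at 7-qD2-11976.3 and 399.8 ± 17.8 at 7-qD2-24830.3 down to 69.1 ± 2.33 at 7-qF3-246.1. 7-qD1-19431.2 (370.3 ± 0.246) and 7-qD1-654.1 (369.7 ± 15.0) did not differ in precursor per kb beyond their spread, followed by 7-qD1-9417.1 (212 ± 0.0700), 7-qD1-16444.1 (149 ± 3.67) and 7-qF3-3125.5 (141 ± 1.56; SD, n = 2 each).

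In counts, without regard to length, the arms of all 4 pairs were further apart in piRNA than in precursor in Exd2+/+. The arm with more precursor counts was also the arm with more piRNA counts in each pair, and it was the longer arm. Per kb this did not hold in the 7-qD1-9417.1 pair, nor in the 7-qD2 pair, whose arms were within their spread in piRNA per kb. For the 7-qD1-654.1 pair the plus arm had 40.8 times the piRNA counts of the minus arm but 5.58 times the precursor counts. Per kb of genomic span, introns included, its arms had nearly equal precursor, with a ratio of minus to plus of 0.998. On the same scale the plus arm had 7.33 times the piRNA of the minus arm. In the 7-qF3 pair the minus arm had 30.9 times the piRNA counts and 4.49 times the precursor counts of the plus arm. The 7-qD1-9417.1 pair (1.66 times more piRNA and 1.12 times more precursor from the plus arm) and the 7-qD2 pair (1.94 and 1.70 times more from the minus arm) were nearer to even. Of the 8 other pairs, 7 were also further apart in piRNA counts than in precursor counts, so the pattern in counts is not particular to chromosome 7.

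Tested over the 12 pairs and all 8 libraries, the log2 ratio of minus to plus arm differed between the assays in 3 of the 4 pairs, and in 83.3% of the 12 (limma, Benjamini-Hochberg adjusted p below 0.05). The difference of small minus long RNA was -2.44 ± 0.18 for the 7-qD1-654.1 pair (adjusted p = 4.06e-06), 2.01 ± 0.30 for the 7-qF3 pair (adjusted p = 3.43e-04) and 0.37 ± 0.09 for the 7-qD2 pair (SE; adjusted p = 0.00400, limma). For the 7-qD1-9417.1 pair it was -0.07 ± 0.19 (adjusted p = 0.743, limma) with both genotypes in the fit. That fit had no term of genotype by assay, which was 1.00 ± 0.08 for this pair when added. The value of -0.07 thus averages over genotypes with unlike differences. In the Exd2+/+ libraries alone all 4 pairs passed. The difference was -0.56 ± 0.03 for the 7-qD1-9417.1 pair (adjusted p = 1.30e-04, limma) and -2.87 ± 0.10 for the 7-qD1-654.1 pair. It was 2.78 ± 0.12 for the 7-qF3 pair and 0.19 ± 0.04 for the 7-qD2 pair (adjusted p = 0.00881, limma). The share of the 12 pairs that passed in this fit is not given here, so these 4 calls have no background. Expressed per arm, 6 of the 8 arms had a higher CPM in small than in long RNA in Exd2+/+, from 1.40 times at 7-qF3-3125.5 to 2.55 times at 7-qD1-16444.1. The 2 exceptions were 7-qD1-654.1, at 0.244 times, and 7-qF3-246.1, at 0.204 times. Both are the shorter and weaker arm of their pair, but so are 7-qD1-9417.1, at 1.73 times, and 7-qD2-11976.3, at 1.96 times. As the assays are scaled to their own totals, these ratios rank the arms and are not yields.

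**Figure D2:**
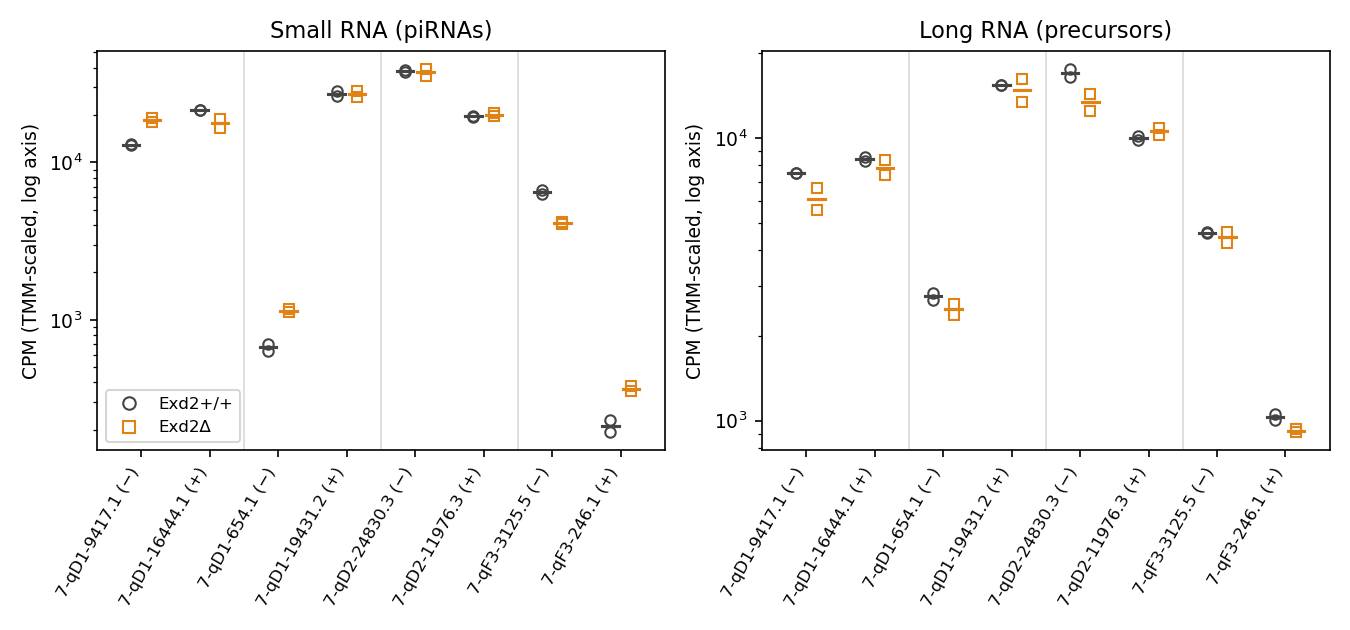
CPM of each arm (TMM-scaled, log axis) in every library, with small RNA on the left and long RNA on the right, circles for Exd2+/+, squares for Exd2∆ and bars for the mean of 2 libraries. In small RNA 7-qD1-654.1 and 7-qF3-246.1 lie far below their partners, at 672 and 211 CPM in Exd2+/+, while the gaps are smaller in long RNA.

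Exd2∆ changed piRNA levels at 5 of the 8 arms, and in 2 pairs the arms went in opposite directions. By edgeR's quasi-likelihood test, 3 arms were higher and 2 lower in Exd2∆ (adjusted p below 0.05), and 64.9% of all loci were called, 33.2% higher and 31.7% lower, so the share among the members is near the background. The absolute log2 fold change had a median of 0.40 over the members and 0.34 over all loci. Genotypes did not overlap in CPM at 5 of the 8 arms, against 79.3% of all loci.

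In the 7-qD1-9417.1 pair piRNAs rose at the minus arm and fell at the plus arm. 7-qD1-9417.1 measured 12823 and 13109.5 CPM in Exd2+/+ replicates 1 and 2 and 19179 and 17962 CPM in Exd2∆ replicates 1 and 2. Both Exd2∆ libraries lay above both controls, a rise of 1.43-fold (log2 fold change 0.52 ± 0.06, adjusted p = 4.22e-05, edgeR). Its partner 7-qD1-16444.1 measured 21596 and 21435 CPM in Exd2+/+ and 18902 and 16600.0 CPM in Exd2∆. Both Exd2∆ libraries were below the controls, and the log2 fold change was -0.28 ± 0.07 (adjusted p = 0.00632, edgeR).

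In the 7-qD1-654.1 pair only the weak arm was called. 7-qD1-654.1 measured 707 and 637 CPM in Exd2+/+ and 1166.5 and 1122 CPM in Exd2∆. The genotypes did not overlap, and the arm rose 1.70-fold (log2 fold change 0.77 ± 0.07, adjusted p = 1.77e-05, edgeR). 7-qD1-19431.2, which makes nearly all piRNAs of this pair, measured 26423 and 28378 CPM in Exd2+/+ and 28614 and 25980.0 CPM in Exd2∆. These libraries overlap, with a log2 fold change of -0.01 ± 0.07 (adjusted p = 0.952, edgeR).

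The 7-qD2 pair, which holds the arms richest in piRNA per kb, had no call. 7-qD2-24830.3 measured 38574 and 37476 CPM in Exd2+/+ and 39302 and 35375 CPM in Exd2∆. The controls lay between the Exd2∆ libraries (log2 fold change -0.03 ± 0.07, adjusted p = 0.763, edgeR). 7-qD2-11976.3 measured 19421 and 19776 CPM in Exd2+/+ and 20495 and 19634 CPM in Exd2∆, which overlap too (0.03 ± 0.05, adjusted p = 0.625, edgeR). For 7-qD2-24830.3 the value was -0.11 ± 0.03 without Exd2∆ replicate 1 (adjusted p = 0.0418, edgeR), which makes it a call.

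In the 7-qF3 pair the strong arm fell and the weak arm rose. 7-qF3-3125.5 measured 6671 and 6329 CPM in Exd2+/+ and 4212 and 4044 CPM in Exd2∆. Both Exd2∆ libraries lay far below the controls, with a log2 fold change of -0.66 ± 0.05 (adjusted p = 6.75e-06, edgeR). 7-qF3-246.1 measured 193 and 229.6 CPM in Exd2+/+ and 379 and 351 CPM in Exd2∆, without overlap. It rose 1.73-fold (log2 fold change 0.79 ± 0.11, adjusted p = 2.39e-04, edgeR). In the authors' deposited table of the small RNA comparison the same 5 arms have an adjusted p below 0.05.

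Precursor levels of the 8 arms did not pass the test. By edgeR's quasi-likelihood test 0 of 8 precursors were called, against 7.69% of all loci (6.73% higher, 0.962% lower). DESeq2 called 1 of 8, which was lower, against 18.8% of all loci (5.29% lower). With edgeR 2 arms had an unadjusted p under 0.05, for which the share over all loci is not given here. The log2 fold change was negative at 7 of the 8 arms and at 46.2% of all loci, and its median was -0.13 over the members and 0.01 over all loci. Exd2∆ replicate 1 lay below Exd2∆ replicate 2 at all 8 arms, whereas in small RNA it lay above at all 8. The share of all loci with these orders is not given here, so they cannot be called particular to the arms. Without Exd2∆ replicate 2, 5 arms were called, all lower, but 50.5% of all loci were then called too, 23.6% lower (edgeR). Without Exd2∆ replicate 1, 1 arm was called, 7-qD2-24830.3, against 28.8% of all loci (edgeR). Genotypes did not overlap at 5 of the 8 arms, against 62.5% of all loci.

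The most negative log2 fold change was that of 7-qD2-24830.3, with 17546 and 16478 CPM in Exd2+/+ and 12506 and 14287 CPM in Exd2∆. Both Exd2∆ libraries lay below the controls (-0.34 ± 0.10, adjusted p = 0.103, edgeR). DESeq2 called this arm (-0.35 ± 0.12, adjusted p = 0.0290, DESeq2), as it did 18.8% of all loci. 7-qD1-9417.1 measured 7515 and 7511.5 CPM in Exd2+/+ and 5543 and 6671 CPM in Exd2∆. These did not overlap either (-0.30 ± 0.11, adjusted p = 0.157, edgeR), and the arm is the one whose piRNAs rose 1.43-fold. Its value was -0.17 ± 0.08 without Exd2∆ replicate 1 (adjusted p = 0.122) and -0.43 ± 0.09 without Exd2∆ replicate 2 (adjusted p = 4.31e-06, edgeR). 7-qD1-654.1 measured 2675 and 2833 CPM in Exd2+/+ and 2360.4 and 2597 CPM in Exd2∆ (-0.15 ± 0.10, adjusted p = 0.349, edgeR), and 7-qF3-246.1 measured 1008 and 1057 CPM in Exd2+/+ and 910.2 and 931 CPM in Exd2∆ (-0.16 ± 0.08, adjusted p = 0.267, edgeR).

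7-qD2-11976.3 was the 1 arm with a positive value. It measured 10169 and 9821 CPM in Exd2+/+ and 10253 and 10843 CPM in Exd2∆, with a log2 fold change of 0.08 ± 0.08. The other arms overlapped between the genotypes. 7-qD1-19431.2 measured 15351 and 15365.5 CPM in Exd2+/+ and 13386 and 16167 CPM in Exd2∆ (-0.06 ± 0.11), and 7-qD1-16444.1 measured 8585 and 8291 CPM in Exd2+/+ and 7371 and 8325 CPM in Exd2∆ (-0.10 ± 0.09). 7-qF3-3125.5, whose piRNAs fell most, measured 4595 and 4667 CPM in Exd2+/+ and 4254 and 4656 CPM in Exd2∆ (-0.06 ± 0.09). The adjusted p of these 4 arms was 0.479 or more (edgeR).

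**Figure D3:**
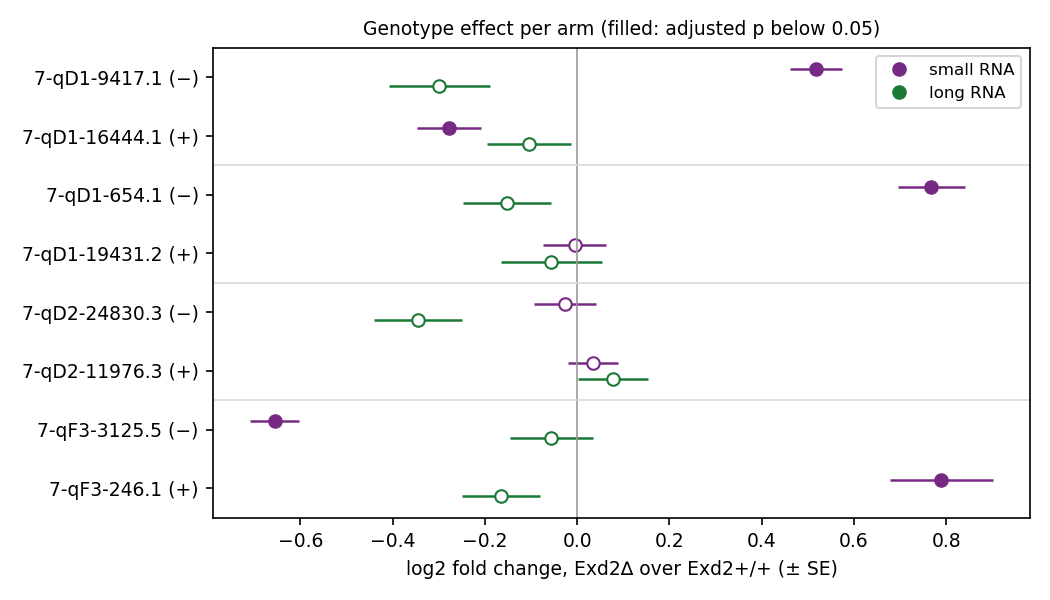
Log2 fold change of Exd2∆ over Exd2+/+ for each arm (x axis, ± SE) in small RNA (purple) and long RNA (green), with filled points for an adjusted p below 0.05 in edgeR's quasi-likelihood test. The 5 filled points are all in small RNA, and in the first and last pair they lie on opposite sides of 0.

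At 5 of the 8 arms piRNA and precursor responded differently to genotype (adjusted p below 0.05 for the term of genotype by assay in edgeR), 4 more positive and 1 more negative in small RNA. Of all loci 51.9% passed, 25.5% more positive and 26.4% more negative. The fold change was higher in small than in long RNA at 7-qF3-246.1 (log2 difference 0.95 ± 0.14, adjusted p = 8.40e-04), 7-qD1-654.1 (0.92 ± 0.13, adjusted p = 6.69e-04), 7-qD1-9417.1 (0.82 ± 0.12, adjusted p = 8.40e-04) and 7-qD2-24830.3 (0.32 ± 0.11, adjusted p = 0.0402, edgeR). It was lower at 7-qF3-3125.5 (-0.60 ± 0.11, adjusted p = 0.00232, edgeR). The call of 7-qD2-24830.3 was lost on leaving out each of 6 of the 8 libraries in turn, with an adjusted p of 0.0545 to 0.132 (edgeR). The other 3 arms stood between -0.17 and 0.05 (adjusted p of 0.240 or more, edgeR).

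The ratio of the arms within a library needs no scaling between libraries. In small RNA the minus arm of the 7-qD1-9417.1 pair gave 37.3% and 37.9% of the pair's counts in Exd2+/+ replicates 1 and 2 and 50.4% and 52.0% in Exd2∆. The weaker arm had thus become the stronger in both Exd2∆ libraries, and the log2 ratio of minus to plus rose by 0.80 ± 0.05 (1.74-fold, adjusted p = 0.00181, limma over 12 pairs). In the 7-qD1-654.1 pair the minus arm gave 2.60% and 2.20% in Exd2+/+ and 3.92% and 4.14% in Exd2∆, a rise of 0.78 ± 0.11 (1.71-fold, adjusted p = 0.00940, limma).

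The minus arm of the 7-qF3 pair gave 97.2% and 96.5% of the piRNA counts in Exd2+/+ and 91.7% and 92.0% in Exd2∆. The log2 ratio fell by 1.45 ± 0.13 (2.73-fold, adjusted p = 0.00412, limma), the largest change among the 12 pairs. The 7-qD2 pair gave 66.5% and 65.5% from the minus arm in Exd2+/+ and 65.7% and 64.3% in Exd2∆, which overlap (-0.06 ± 0.05, adjusted p = 0.321, limma). In all, 3 of the 4 pairs passed, against 75% of the 12 pairs. The other 8 pairs lay between -0.38 (9-qC-31469.1 with 9-qC-10667.1) and 0.82 (pi-1700016M24Rik.2 with 15-qD3-14639.3).

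The arm that was the weaker in Exd2+/+ had a higher share of the pair's piRNA counts in Exd2∆ in 4 of 4 pairs on chromosome 7. For the 7-qD2 pair this difference was within the spread, from 34.0% to 35.0%. The same held in 7 of the 8 other pairs. In long RNA the weaker arm had a higher share in 1 of the 4 pairs and in 4 of the 8 others. The weaker arm was named from the same Exd2+/+ libraries, and this count has no test.

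Among precursors the arm ratio was called in the 7-qD2 pair and the 7-qD1-9417.1 pair. In the 7-qD2 pair the minus arm gave 63.3% and 62.7% of the long RNA counts in Exd2+/+ and 54.9% and 56.9% in Exd2∆. The log2 ratio fell by 0.42 ± 0.06 (adjusted p = 0.00248, limma), while the piRNA ratios of this pair overlapped between the genotypes. In the 7-qD1-9417.1 pair the minus arm gave 46.7% and 47.5% in Exd2+/+ and 42.9% and 44.5% in Exd2∆, a fall of 0.20 ± 0.06 (adjusted p = 0.0440, limma). That is against the direction of its piRNAs. It no longer passed without Exd2∆ replicate 1 (adjusted p = 0.0554) and without either Exd2+/+ replicate (adjusted p = 0.141 and 0.333, limma).

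The 7-qD1-654.1 pair gave 14.8% and 15.6% from the minus arm in Exd2+/+ and 15.0% and 13.8% in Exd2∆ in long RNA (-0.09 ± 0.07, adjusted p = 0.301, limma). The 7-qF3 pair gave 82.0% and 81.5% in Exd2+/+ and 82.4% and 83.3% in Exd2∆ (0.11 ± 0.06, adjusted p = 0.192, limma). So 2 of the 4 pairs passed in long RNA, against 33.3% of the 12 pairs. The genotypes did not overlap in arm ratio in 83.3% of the 12 pairs in small RNA and 75% in long RNA.

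**Figure D4:**
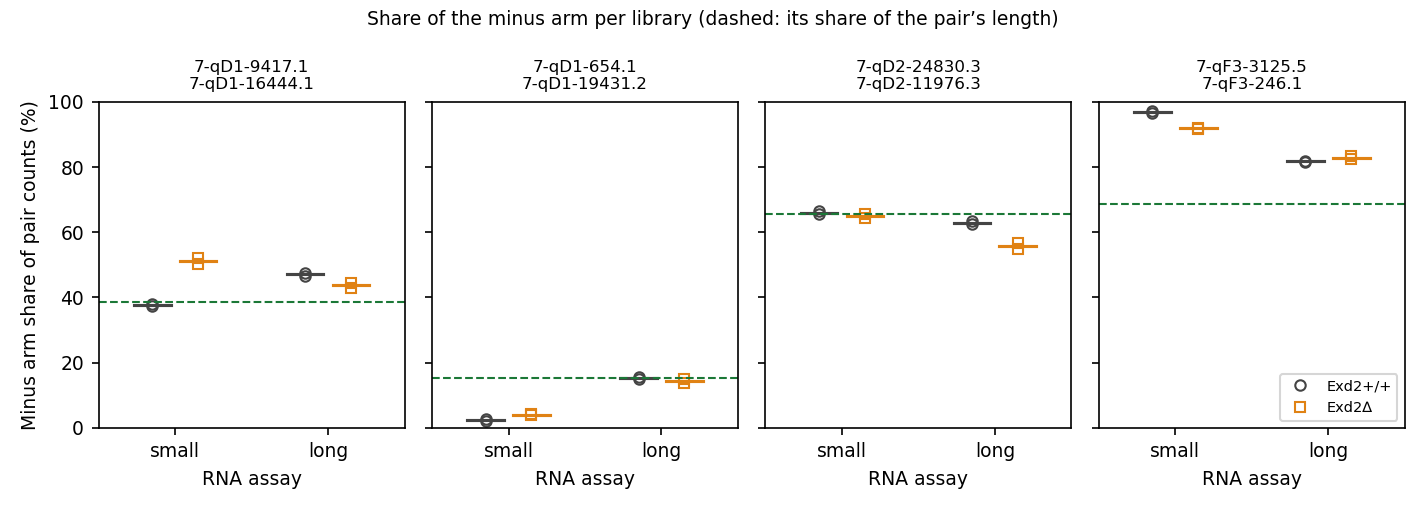
Share of the minus arm in the counts of each pair (y axis, percent) per library in small and long RNA, with circles for Exd2+/+, squares for Exd2∆, bars for the mean of 2 libraries and a dashed line for the minus arm's share of the pair's length. The 7-qD1-9417.1 pair moves from 37.6% to 51.2% in small RNA and from 47.1% to 43.7% in long RNA.

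The change of the arm ratio differed between the assays in all 4 pairs, against 66.7% of the 12 pairs (limma interaction of assay and genotype on the log2 ratios, a test added after the first results were seen). The change in small minus that in long RNA was 1.00 ± 0.08 for the 7-qD1-9417.1 pair (adjusted p = 5.88e-05), 0.87 ± 0.13 for the 7-qD1-654.1 pair (adjusted p = 0.00132), 0.36 ± 0.08 for the 7-qD2 pair (adjusted p = 0.00770) and -1.56 ± 0.14 for the 7-qF3 pair (SE; adjusted p = 1.02e-04, limma). Leaving out any 1 library kept all 4 calls.

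**Figure D5:**
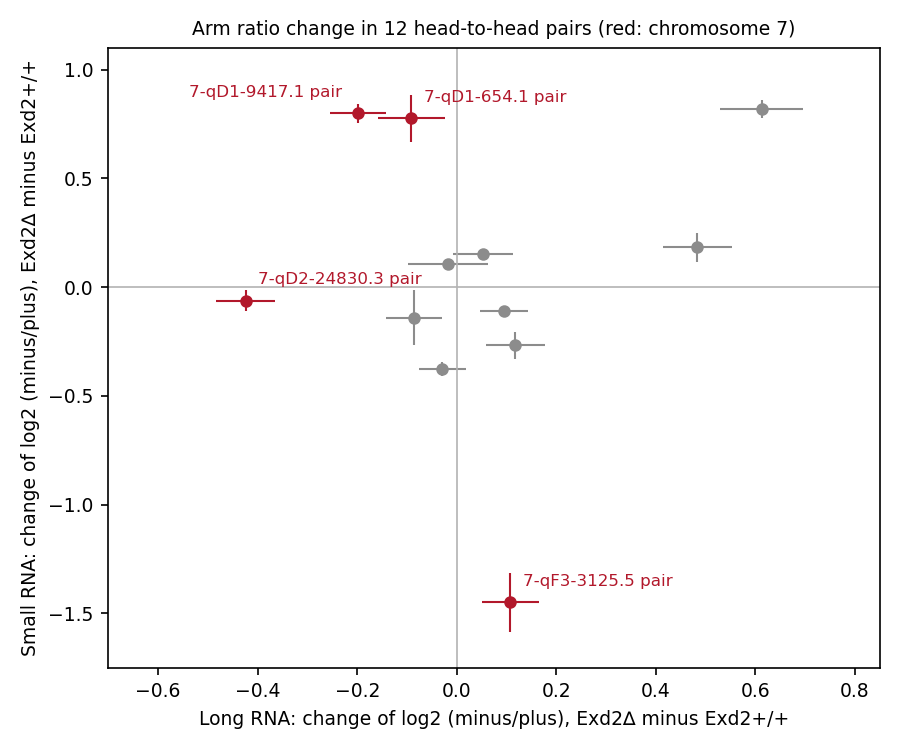
Change of the log2 ratio of minus to plus arm from Exd2+/+ to Exd2∆ in long RNA (x axis) and small RNA (y axis), ± SE, for the 4 pairs on chromosome 7 (red) and the 8 other pairs (grey). The 7-qF3-3125.5 pair stands apart at -1.45 in small RNA and 0.11 in long RNA.

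With the arms of each pair summed, a fit also added later, piRNAs of 1 of the 4 pairs were called, against 64.3% of the 196 loci and pairs in that fit. The 7-qF3 pair fell from 6864 and 6559 CPM in Exd2+/+ to 4591 and 4394 CPM in Exd2∆ (log2 fold change -0.58 ± 0.05, adjusted p = 2.47e-05, edgeR). The 7-qD1-9417.1 pair gave 34419 and 34544.5 CPM in Exd2+/+ and 38081 and 34562 CPM in Exd2∆ (0.08 ± 0.06, adjusted p = 0.327, edgeR), so its arm ratio changed while its sum was not called. Without Exd2∆ replicate 2 that sum was called too (0.14 ± 0.03, adjusted p = 0.0278, edgeR). The sums of the 7-qD1-654.1 pair (0.02 ± 0.07) and the 7-qD2 pair (-0.01 ± 0.06) were not called. In long RNA 0 of the 4 sums were called by edgeR's quasi-likelihood test, the 1 tool run on sums, against 6.63% of the 196. Some other head-to-head pairs had an unadjusted p under 0.05 in long RNA (0.00467 to 0.0444, edgeR), and the share of the 196 is not given here. Of the 4 sums on chromosome 7, 0 did (-0.19 ± 0.10 to -0.07 ± 0.10, edgeR). Without Exd2∆ replicate 2 the values were -0.30 (7-qD1-9417.1 pair), -0.20 (7-qD1-654.1 pair), -0.24 (7-qD2 pair) and -0.13 (7-qF3 pair). Without Exd2∆ replicate 1 they were -0.09, 0.05, -0.10 and -0.02 in the same order.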

How the data were processed

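Testis RNA was measured as small RNA (libraries from 10 µg of total RNA, cut from a gel) and as long RNA (from 1 µg, rRNA-depleted), single-end with reads of 50 nt, per the labels' protocols. The authors deposited estimated counts per piRNA locus, not scaled to library size, with log2 fold changes and adjusted p-values of their own comparison, per the file headers. These deposited values were made with cutadapt, STAR and edgeR on GRCm38, per the submitters' processing notes. Tool versions, how reads were counted, whether strand was used and how multiply aligned reads were shared out were not given in the sources used here, so counts of repeated sequence are less certain. All count columns were matched to samples by the codes in the labels.

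Estimated counts were rounded and tested per assay over all loci in R 4.3.3 with edgeR 4.0.16 (filterByExpr, TMM, glmQLFit with its legacy option, genotype as the only term). The default option gave negative F statistics in small RNA. Standard errors are the absolute log2 fold change over the square root of F. Unrounded log2 arm ratios were fitted with limma 3.58.1 (eBayes) over 12 pairs, 1 of which overlaps by 384 bp. Calls are Benjamini-Hochberg adjusted p-values below 0.05. With 2 libraries against 2, an exact permutation test of a single value cannot go below p = 0.333 (two-sided), so the tests rest on spread shared across loci or pairs. Fits were also run on simulated counts with known changes, and the outcome is not given here. Replicates differed by more than sampling noise.

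All 8 members were named in each comparison, and beside each the other locus nearest to it over the 8 libraries. Members were set by name and position and not by their values, but members, lists and tests were chosen with earlier results of these data known. The planned window of 300 bp centred between the arms and a wider one were not read, since no genome sequence was used here, and RefSeq promoter windows took their place. Other settings tried were scaling by RLE or by library totals, counts unfiltered or at least 100 in 2 libraries, edgeR's default option, DESeq2 1.42.0, the replicate number as a block, pairs within 200 bp, edgeR on both arms' counts, and leaving out each library.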

Additional observations from a re-analysis of the deposited data

Results flagged for a closer look

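The genotype effect of 5 arms differed between small and long RNA by the interaction test of edgeR (quasi-likelihood, all 8 libraries), in log2 fold change of small minus long RNA. The values were 0.92 for 7-qD1-654.1, 0.816 for 7-qD1-9417.1, 0.318 for 7-qD2-24830.3, -0.60 for 7-qF3-3125.5 and 0.954 for 7-qF3-246.1. Of all loci 51.9% passed this test. Groups of 2 libraries are too small to test a single library as standing apart.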

How the results depend on the processing

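The 5 arms called in small RNA kept their call and direction under each alternative run, as did the 3 arm ratios called there. In long RNA the count of arms called, 0 of 8, became 1 with DESeq2 and 0 to 5 on leaving out a library. The count of long RNA arm ratios called, 2 of 4, became 1 with the replicate block, where the 7-qD1-9417.1 pair was lost (-0.20, adjusted p = 0.0555, limma), and 1 to 2 on leaving out a library. The block changed no other call among the members' genotype effects, arm ratios and locus interactions, and was not run on the other fits. Same-numbered libraries deviated together with r = 0.04 in small and 0.34 in long RNA across loci, and nothing in the labels says that a number marks a pair. Over all loci the block gave 38 calls and DESeq2 39 in long RNA, against 16, and leaving out a library gave 60 without Exd2∆ replicate 1, 105 without Exd2∆ replicate 2 and 0 without either Exd2+/+ replicate. On leaving out a library the count of sums called, 1 in small and 0 in long RNA, became 1 to 2 and 0 to 3.

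Values that were not called changed sign, and the cause was not tested. With library totals these were 7-qD1-19431.2 (0.039) and 7-qD2-24830.3 (0.018) in small RNA and the interaction of 7-qD2-11976.3 (0.061). Leaving out each library in turn, the small RNA values ranged from -0.085 to 0.055 for 7-qD1-19431.2, from -0.11 to 0.041 for 7-qD2-24830.3 and from -0.0058 to 0.057 for 7-qD2-11976.3. In long RNA they ranged from -0.19 to 0.077 for 7-qD1-19431.2 and from -0.12 to 0.010 for 7-qF3-3125.5. The interaction of 7-qD1-19431.2 became -0.030, -0.00057 and -0.082 without Exd2∆ replicate 1 or Exd2+/+ replicate 1 of small RNA or Exd2∆ replicate 1 of long RNA. The assay difference of the 7-qD1-9417.1 pair became 0.043, 0.026, 0.024 and 0.044 without each Exd2+/+ library. Sums in small RNA ranged from -0.0050 to 0.14 for the 7-qD1-9417.1 pair, -0.059 to 0.078 for the 7-qD1-654.1 pair and -0.075 to 0.0465 for the 7-qD2 pair, and in long RNA from -0.20 to 0.053 for the 7-qD1-654.1 pair. A wider promoter window was not run. Depth limits little here, since the lowest count of a member is 847.5.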

Other observations

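Over the 8 libraries, as log2 CPM minus the Exd2+/+ mean of each assay, the other locus nearest to 7-qD1-9417.1 was 10-qB4-6488.2 (Euclidean distance 0.157, log2 fold changes 0.58 in small and -0.24 in long RNA). For 7-qF3-246.1 it was 4-qB3-3994.3 (distance 0.316, 0.74 and -0.25), for 7-qD1-654.1 pi-Zyg11b.1 (distance 0.235, 0.70 and -0.18) and for 7-qF3-3125.5 6-qC3-100.5 (distance 0.198, -0.65 and -0.02). For 7-qD1-16444.1 it was 10-qB5.1-5404.2 (0.179) and for 7-qD2-11976.3 8-qC5-2209.1 (0.179). The nearest loci of 7-qD1-19431.2 and 7-qD2-24830.3 were themselves arms of divergent pairs, 15-qD1-17920.3 (0.194) and 6-qF3-28913.1 (0.170). These distances describe 8 libraries and carry no test.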
